A study of Mus musculus with 4 samples.

Results

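The coding genes of the 4 Hox clusters were examined in primary neural stem/progenitor cells (NSCs), as genes that chromatin repression keeps off in cells outside their own domain. Members were all rows of the expression table whose name is Hoxa, Hoxb, Hoxc or Hoxd followed by digits only. Of these genes in GENCODE release M21 of the mouse genome (GRCm38), 38 are described here, and 9 of them had a row among the 18169 rows of the table, so 29 have no value here. RNA was sequenced from 2 +/+ and 2 Chd5-/- samples (replicates 1 and 2 of each genotype), all C57BL/6 and each an NSC culture from the periventricular region of 1 newborn brain, expanded with EGF and FGF2. Chd5, which the Chd5-/- cells lack, is a chromatin remodeler of the nucleosome remodeling and deacetylase complex. The growth protocol gives postnatal day 1 for all samples, but the age entries run from day 1 and day 2 (+/+) to day 3 and day 4 (Chd5-/-). If those entries hold, age and genotype cannot be told apart. The labels give no litter, and the p-values below measure only the spread between these cultures.

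Hox genes encode homeodomain transcription factors that give cells of the embryo their position along the head-to-tail axis. They lie in 4 clusters on different chromosomes, and the genes at one end of a cluster (paralogue groups 1 to 3) act in the hindbrain and branchial arches, whereas those at the other end act in the trunk, limbs and tail. The forebrain and midbrain form ahead of the Hox domain, and the labels name the zones along the ventricles without a brain division. Outside their domain the clusters are kept silent by Polycomb complexes, which place and read the repressive mark H3K27me3, and loss of that repression is known for turning Hox genes on in cells that should lack them. The RNA of Chd5-/- NSCs was sequenced to ask how Chd5 and this mark bear on gene expression, and the Hox clusters are a place where lost repression would be looked for.

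Expression was measured in TPM (transcript abundance scaled to a fixed total per sample), as deposited. TPM adjusts for transcript length, so levels can be set beside each other across genes, but it keeps no read count, so the depth behind a value of 0.1 TPM is unknown. Chd5 itself measured 0.39 and 0.37 TPM in +/+ NSCs, above the 0.06 and 0.04 TPM of Chd5-/- NSCs, all under the level tested. Of 13 NSC marker rows, none was at 0 in any sample, and Vim, an intermediate filament of neural progenitors, was between 1067.86 and 1502.02 TPM. The list's most abundant row, Fabp7, a fatty acid binding protein of radial glia, had a mean of 3990 TPM. Its log2 differences went from -1.38 for Slc1a3, a glial glutamate transporter (limma adjusted p = 0.162), to 2.12 for Prom1 (limma adjusted p = 0.329), which stood at 45.27 TPM in Chd5-/- replicate 1 and at 0.99 to 4.15 TPM in the others. The cultures also differed within a genotype. Lhx2, a forebrain regulator, was at 37.37 TPM in +/+ replicate 1 and at 5.60 TPM in +/+ replicate 2. In Chd5-/- replicate 1, the summed level of 13 mesenchymal marker rows was 459 TPM, against 23.8 to 38.2 TPM in the other samples. Most of this was Thy1, a surface protein that neurons also carry, at 388.35 TPM there and 2.81 to 16.51 TPM elsewhere, and without it the sums were 70.9 TPM and 21 to 23.4 TPM. Foxc1, a mesenchymal regulator and the next most abundant row, was at 26.59 TPM there and at 5.57 to 19.87 TPM elsewhere. Blood and microglial markers were near 0, with 2 of 16 names having a row and at most 0.17 TPM.

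Promoters of 3 HoxA genes that differ in these data are shown first, each as 300 bases around the start site from RefSeq (GRCm38.p6), read 5′ to 3′ on the minus strand. CG dinucleotides, which are dense in many Polycomb-bound promoters, are in capitals. Hoxa2 (chr6:52164782-52165081) was near 0 in every sample but 1, Hoxa5 (chr6:52204538-52204837) had a mean of at least 1 TPM, and Hoxa10 (chr6:52240805-52241104) had no row.
Hoxa2: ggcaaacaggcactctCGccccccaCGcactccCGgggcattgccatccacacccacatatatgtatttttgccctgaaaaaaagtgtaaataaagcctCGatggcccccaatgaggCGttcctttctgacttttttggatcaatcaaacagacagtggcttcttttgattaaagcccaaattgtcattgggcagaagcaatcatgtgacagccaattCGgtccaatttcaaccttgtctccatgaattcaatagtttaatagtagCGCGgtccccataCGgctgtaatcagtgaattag
Hoxa5: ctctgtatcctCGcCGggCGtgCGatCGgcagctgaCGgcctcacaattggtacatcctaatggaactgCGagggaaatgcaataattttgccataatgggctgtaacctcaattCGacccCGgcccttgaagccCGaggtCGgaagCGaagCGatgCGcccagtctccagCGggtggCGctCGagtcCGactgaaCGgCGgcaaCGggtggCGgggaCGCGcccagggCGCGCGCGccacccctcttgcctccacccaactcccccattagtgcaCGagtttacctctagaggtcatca
Hoxa10: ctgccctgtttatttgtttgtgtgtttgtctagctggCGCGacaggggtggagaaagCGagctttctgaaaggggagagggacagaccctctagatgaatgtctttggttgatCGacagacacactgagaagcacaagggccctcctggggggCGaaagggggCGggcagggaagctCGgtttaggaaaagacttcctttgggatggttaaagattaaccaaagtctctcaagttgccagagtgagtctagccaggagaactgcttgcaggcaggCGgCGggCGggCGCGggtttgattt

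The Hoxa5 window held 29 CG dinucleotides, more than 87.1% of the 32841 promoters of this length in the RefSeq table. The Hoxa2 and Hoxa10 windows held 9 and 12, more than 54.2% and 60.4% of them. Over the 22 Hox genes with a promoter in that table, the median was 13.5 CG, with a range from 4 to 45, against a median of 7 over all promoters. The 7 Hox promoters whose gene had a row had a median of 9, and the 15 whose gene had none a median of 14. Genes with a row were thus not the ones with more CG in this window.

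Motifs were searched on both strands. A CCAAT match was found in 14 of the 22 Hox promoters and in 37.4% of all promoters, with 4 matches in Hoxa2, 1 in Hoxa5 and 0 in Hoxa10. The Hox-Pbx motif TGATNNAT was found in 3 of 22 (8.85% of all promoters) and the Meis motif TGACAG in 2 of 22 (19.2%), and Hoxa2 held 1 match of each. TATAAA was found in 3 of 22 (13.6%). These matches are descriptions of the sequence only.

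Few of these genes were measured in the NSCs, and those at low levels. Of the 38 genes, 1, Hoxa5, had a mean of at least 1 TPM over the 4 samples, 8 had a mean above 0 and under 1 TPM, and 29 had no row. The table holds no row at 0 in all 4 samples, and its smallest value above 0 is 0.01 TPM, so a gene with no row may have been at 0 throughout or may not have been counted. Of the 10 HoxA genes described, on chromosome 6, 1 was at 1 TPM or more, 6 were lower and 3 (Hoxa10, Hoxa11 and Hoxa13) had no row. None of the 10 HoxB genes on chromosome 11 had a row. HoxC on chromosome 15 and HoxD on chromosome 2 each had 1 of 9 genes with a row, Hoxc6 and Hoxd11. By paralogue group, 2 of 7 genes of groups 1 to 3, 5 of 15 of groups 4 to 8 and 2 of 16 of groups 9 to 13 had a row. The Hox expression measured was thus nearly all from HoxA, up to Hoxa9.

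**Figure D1:**
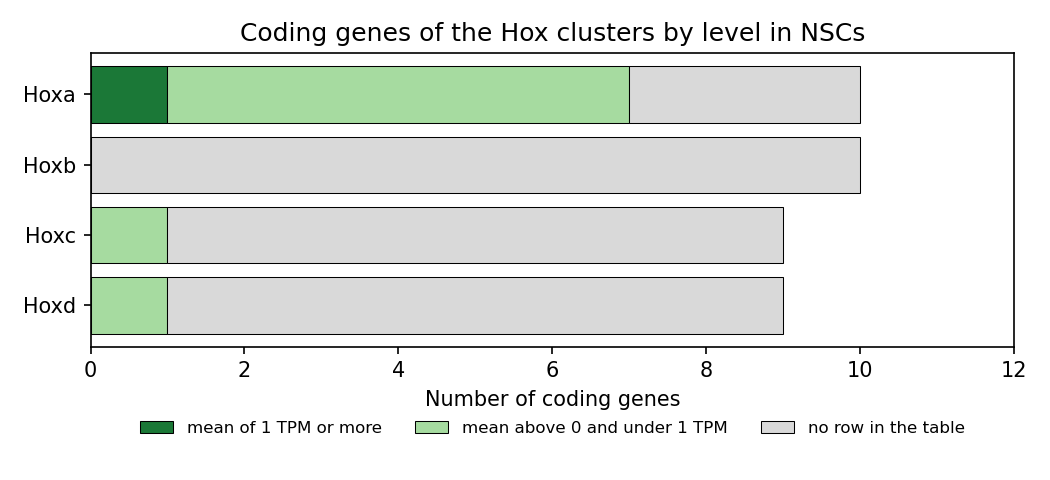
Number of coding genes described in each Hox cluster by mean TPM over the 4 NSC samples, with dark green for at least 1 TPM, light green for lower means and gray for genes with no row. HoxA has 7 of 10 genes with a row, HoxB has 0 of 10, and HoxC and HoxD have 1 of 9 each.

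Levels were low even for the most abundant of these genes. The mean of Hoxa5 was 1.96 TPM, above that of 35.9% of all rows, and the other means lay above 3.09% to 29.6% of all rows. The highest value was 4.80 TPM, for Hoxa5 in a +/+ sample, and the highest in a Chd5-/- sample was 3.16 TPM, for Hoxa2. The median of all rows was 4.54 to 5.33 TPM in the +/+ samples and 8.22 to 8.25 TPM in the Chd5-/- samples. In bulk RNA, a low level in every cell and a higher level in few cells cannot be told apart.

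Hoxa5 (chromosome 6, 52201754 to 52204587, minus strand) acts in lung, diaphragm innervation and the cervical skeleton. It reached 1.42 and 4.80 TPM in +/+ cultures, while Chd5-/- cultures had 1.51 and 0.11 TPM. Chd5-/- replicate 1 lay just above +/+ replicate 1, so the genotypes overlapped. The log2 difference in log2(TPM + 1), Chd5-/- minus +/+, was -1.17 (standard error 0.63, 95% interval -2.76 to 0.43), and limma, run on the 12576 rows whose mean was 1 TPM or more, gave an adjusted p of 0.316. It was below 0 in all 12 alternatives computed for it, from -2.23 to -0.46, with adjusted p-values between 0.0848 and 0.909. It did not pass the threshold in any of them.

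Hoxa2 (chromosome 6, 52162417 to 52164831, minus strand), which sets the identity of the second branchial arch, had the most positive difference of the Hox genes. It measured 0.04 and 0.11 TPM in +/+ cultures, 3.16 TPM in Chd5-/- replicate 1 and 0 in Chd5-/- replicate 2. One Chd5-/- culture was thus above and the other below both +/+ cultures. The difference of 0.92 in log2(TPM + 1) became -0.10 without Chd5-/- replicate 1, and with no minimum TPM its unadjusted limma p was 0.263. Other rows were high in that same culture, and those named here were picked after their values were seen. In the order +/+ 1, +/+ 2, Chd5-/- 1 and Chd5-/- 2, Postn, a matrix protein of mesenchymal cells, was at 0.06, 0.03, 15.11 and 0 TPM. Col3a1, a fibrillar collagen, was at 0.04, 0, 7.41 and 0 TPM. Of the 14 mesenchymal markers listed, 13 had a row, of which 5, 7, 2 and 6 were at 0 in the same order of samples, and Col1a1, a defining one, was at 0 in 3 samples and 0.07 TPM in Chd5-/- replicate 2. The part of such cells in the Hoxa2 value was not tested.

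Hoxa3 and Hoxa4, genes of the pharyngeal arches and cervical vertebrae, were mostly seen in +/+ replicate 2. Hoxa3 (chromosome 6, 52169062 to 52213336, minus strand) had 0.14 and 1.2 TPM in +/+ NSCs against 0.13 and 0.08 TPM in Chd5-/- NSCs. Hoxa4 (52189671 to 52191753, same strand) had 0.14 and 1.31 TPM in +/+ NSCs against 0 and 0.14 TPM in Chd5-/- NSCs. In both genes 1 culture stood above the other 3, and without it the log2 differences of -0.52 and -0.60 became -0.045 and -0.095. The annotated span of Hoxa3 overlaps Hoxa4, Hoxa5 and Hoxa6 on the same strand, so reads could be shared among these 4 genes.

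The other HoxA genes were barely detected. Hoxa7, a gene of trunk patterning, was at 0.11, 0.25, 0.28 and 0 TPM in the order given above. Hoxa6 was at 0, 0.16, 0.18 and 0 TPM, and Hoxa9, which also acts in blood stem cells, at 0.07, 0.16, 0.03 and 0 TPM. Hoxc6, a gene of the brachial spinal cord, was above 0 in +/+ replicate 2 only, at 0.06 TPM. Hoxd11, a gene of the forelimb and posterior trunk, was above 0 in Chd5-/- replicate 1 only, at 0.07 TPM. The highest value among these 5 genes was the 0.28 TPM of Hoxa7, and at such levels no change between genotypes could be read.

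Over the genes described, none was higher in both Chd5-/- cultures than in both +/+ cultures. Of the 9 rows, 0 had both Chd5-/- samples above both +/+ samples, 2 (Hoxa3 and Hoxa9) had both below, and 7 overlapped. Over all 18169 rows, 41.1% were higher and 10.6% lower without overlap, and over the 5593 rows with a mean under 1 TPM these shares were 29.4% and 5.08%. The higher count stayed at 0 under 3 other scalings between samples, under which 26.7% (median of ratios), 21% (quantiles) and 32.0% (the 20 most abundant rows left out) of all rows were higher. The lower count then became 4, with Hoxa4 and Hoxa5 added, while 24.6%, 25.4% and 18.6% of all rows were lower, in the same order. These counts leaned on single cultures, and with 1 sample against 2 groups separate more often in any row. Without Chd5-/- replicate 2, 4 genes were higher (Hoxa2, Hoxa6, Hoxa7 and Hoxd11) and 3 lower, beside 60% and 20.3% of all rows. Without Chd5-/- replicate 1, 0 were higher and 5 lower, beside 57.4% and 21.7%. Without +/+ replicate 1, 0 were higher and 5 lower, beside 51.4% and 16.1%. Without +/+ replicate 2, 0 were higher and 2 lower, beside 46.4% and 17.7%.

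**Figure D2:**
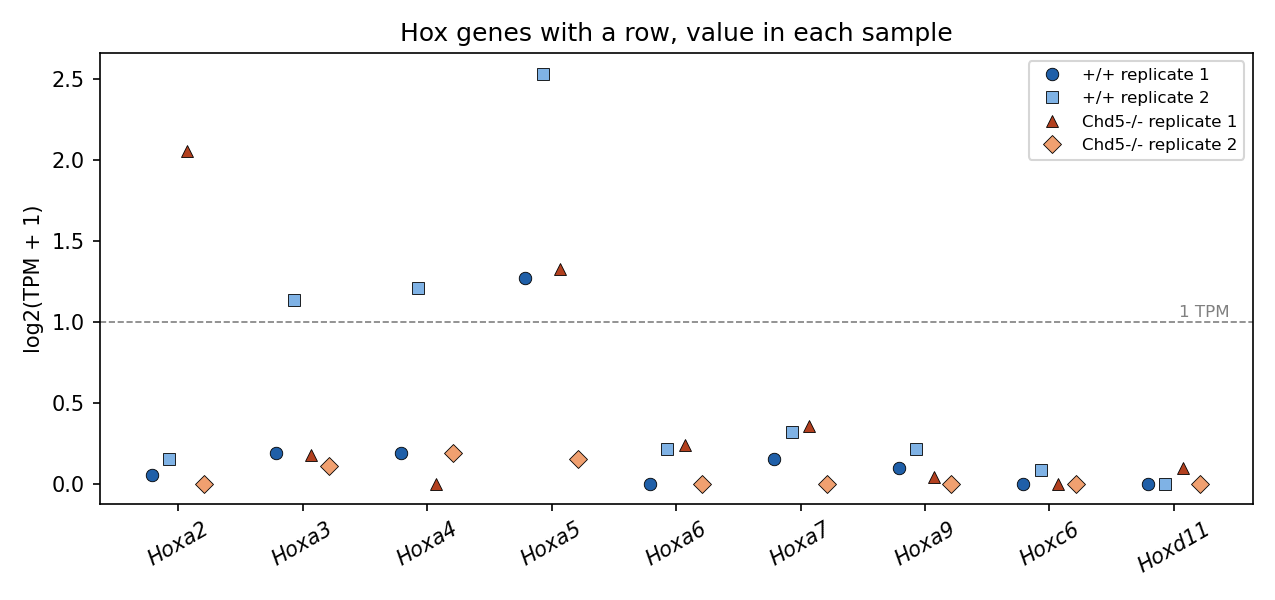
log2(TPM + 1) of the 9 Hox genes described that had a row, with 1 point per sample (blue for +/+, red and orange for Chd5-/-) and a dashed line at 1 TPM. +/+ replicate 2 is highest for 5 genes and Chd5-/- replicate 1 for 4, and no gene has both Chd5-/- points above both +/+ points.

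With limma on the values as deposited, Hoxa5, the 1 gene described here that reached the minimum for testing, passed neither an adjusted nor an unadjusted p of 0.05. After quantile normalization its unadjusted limma p was 0.0464 (adjusted p = 0.292). Its mean was 3.11 TPM in +/+ and 0.81 TPM in Chd5-/- NSCs, so it reached that minimum only through the +/+ cultures. Over all 12576 rows 0.0557% passed the adjusted threshold (0.0318% higher and 0.0239% lower) and 24.1% the unadjusted one (21.9% higher and 2.27% lower). With no minimum TPM, so that all 9 rows were tested, 0 passed either threshold, and the unadjusted p-values went from 0.129 to 0.926, beside 0.0% of all rows at the adjusted and 19.1% at the unadjusted threshold (17% higher and 2.11% lower). The median log2 difference of the 9 rows was -0.058, with 3 above 0 and 6 below. Over all 18169 rows the median was 0.19, and over the 5593 rows with a mean under 1 TPM, where 8 of the 9 lie, it was 0.075. With median-of-ratios scaling the Hox median was -0.12 and that of all rows 0.029. With quantile normalization they were -0.24 and -0.014, and with samples rescaled without the 20 most abundant rows -0.13 and 0.098. Under each of these scalings 2 Hox rows lay above 0 and 7 below. Over the 12576 rows with a mean of 1 TPM or more, the set against which the gene lists below are read, the median was 0.34 as deposited and -0.032, -0.052 and 0.13 under the same 3 scalings.

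The summed Hox level differed more within each genotype than between the genotype means. Summed over the 9 rows, Hox expression came to 1.92 and 8.05 TPM for +/+ and 5.36 and 0.33 TPM for Chd5-/- cultures. Each genotype thus had 1 culture with a high sum and 1 with a low sum. The means were 4.99 ± 4.33 TPM in +/+ and 2.85 ± 3.56 TPM in Chd5-/- NSCs (SD, n = 2). Without Hoxa5, the most abundant of them, the sums were 0.50, 3.25, 3.85 and 0.22 TPM, so the Chd5-/- sum of replicate 1 was then the highest. On the log2 scale, the gap between +/+ cultures exceeded the difference between the genotype means in 6 of 9 genes. The gap between Chd5-/- cultures did so in 5, and either gap in 8, all but Hoxa9. Where a single value is above 0, as for Hoxc6 and Hoxd11, the gap must be the larger. The share over all rows was not computed, so nothing is concluded from these counts. The number of Hox rows above 0 was 6 and 8 for +/+ and 7 and 3 for Chd5-/- cultures. The exact permutation test over 2 samples against 2 cannot go below p = 0.333, and no test was made of the sums.

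Genes flanking HoxA were well expressed. Skap2 and Snx10, which flank HoxA on its 3′ side with starts at -152 and -641 kb from that of Hoxa2, were at 100.43 to 208.06 and 50.06 to 83.56 TPM. On the other side, beyond Hoxa13, Evx1, a homeobox gene usually silenced with the cluster, had no row, whereas Hibadh, 476 kb from Hoxa2, was at 217.13 to 274.73 TPM. Of 22 neighbours of the 4 clusters listed, 17 had a row and 13 were tested. None passed the adjusted threshold, beside 0.0557% of all rows tested. At an unadjusted p under 0.05, 1 was higher, Calcoco1 near HoxC (log2 difference 1.2, limma adjusted p = 0.138). That is 7.69%, beside 21.9% of all rows tested. Atp5g3 and Hnrnpa1, the most abundant neighbours, had means of 1680 and 721 TPM, and Mtx2 had the lowest difference (-0.64, limma adjusted p = 0.241).

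Of the noncoding RNAs of the clusters, 2 beside Hox genes were measured. Halr1 (chromosome 6, 52102949 to 52113684), a long noncoding RNA beyond the 3′ end of HoxA, had 0.64 and 0.44 TPM in +/+ cultures against 5.45 and 0.98 TPM in Chd5-/- cultures. No value overlapped, with a log2 difference of 1.22 (95% interval -0.38 to 2.81, limma adjusted p = 0.297), and the high value was in the same culture as that of Hoxa2. Both +/+ values were under 1 TPM, so Halr1 reached the minimum for testing only through the Chd5-/- cultures. Mira (RefSeq, chromosome 6, 52214491 to 52215288), a noncoding RNA described as an activator of Hoxa6 and Hoxa7, had 0.60 and 4.18 TPM in +/+ cultures and 0.31 and 0 TPM in Chd5-/- cultures. It lies inside the span GENCODE gives for Hoxa7, so reads of the pair could be shared. Its log2 difference was -1.33 (95% interval -2.96 to 0.30, limma adjusted p = 0.271), and its high value was in +/+ replicate 2, as for Hoxa3, Hoxa4 and Hoxa5. Both Chd5-/- values were under 1 TPM, so Mira reached the minimum only through the +/+ cultures. Of 29 noncoding names listed, 4 had a row, and the other 2 lie outside the clusters. GENCODE places Hoxaas3 opposite Hoxa3 to Hoxa7. The libraries were stranded, but the sources used here do not say whether counting used the strand.

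**Figure D3:**
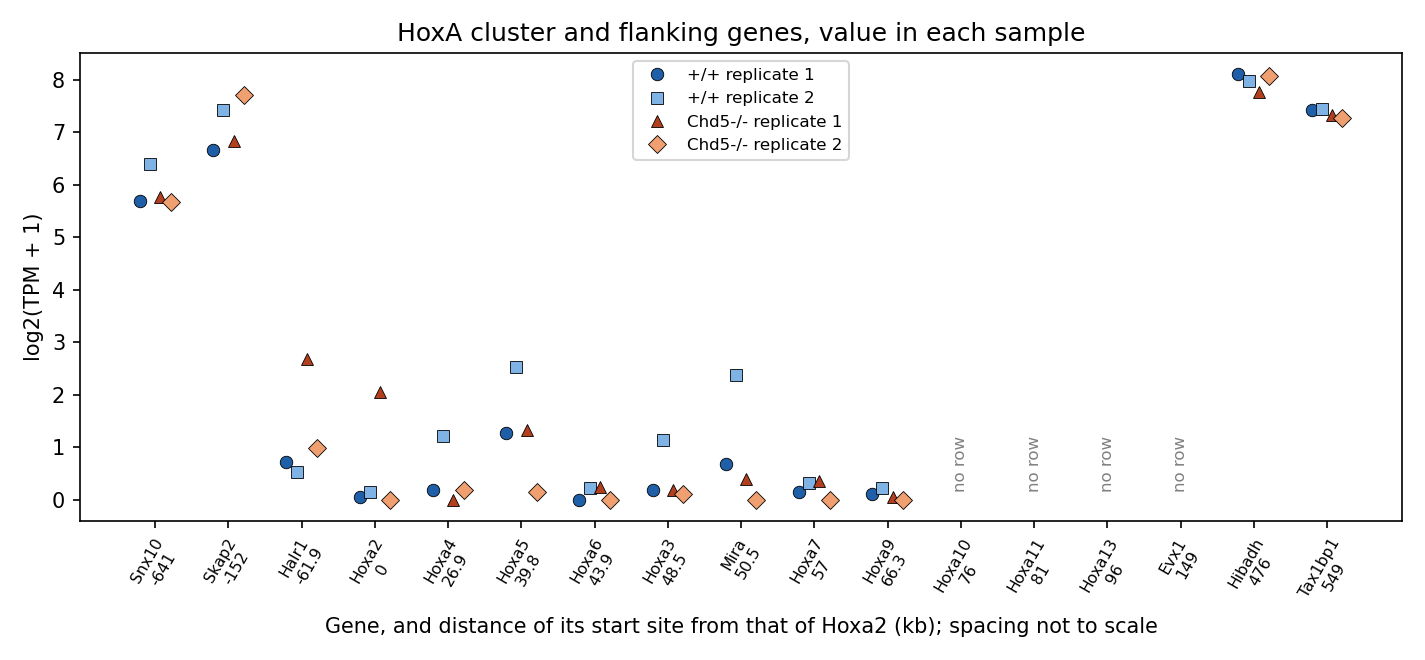
log2(TPM + 1) of the HoxA genes, 2 noncoding RNAs and the flanking genes in each sample, in the order of their annotated start sites, with the distance from the start of Hoxa2 in kb (spacing not to scale, Hoxa3 placed by its longest span). The flanking genes Snx10, Skap2, Hibadh and Tax1bp1 lie at 50.06 TPM or more in every sample, and every HoxA gene shown lies at 4.80 TPM or less.

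Other genes that mark position along the axis, of which Emx2 and Irx3 were picked after their values were seen, also differed among these cultures. Six3, a rostral forebrain gene, had 38.13 and 37.64 TPM in +/+ NSCs but 0.54 and 0.70 TPM in Chd5-/- NSCs, and it was the only row of the 4 lists of axial and non-neural regulators that passed the threshold (log2 difference -4.59, limma adjusted p = 0.0267). It did not pass with either +/+ culture left out, with the replicate number as a block, or with a minimum of 10 TPM or none. Lhx2 was at 37.37, 5.60, 1.55 and 6.73 TPM in the order given above, and Emx2, a cortical patterning gene, at 29.59, 12.11, 2.30 and 0.20 TPM. +/+ replicate 2, with the highest Hox sum, thus had Six3 at the level of +/+ replicate 1 but less Lhx2 and Emx2. Of the hindbrain and spinal cord regulators, Irx3 was at 0.68, 3.48, 8.37 and 2.43 TPM, beside Hox sums of 1.92, 8.05, 5.36 and 0.33 TPM in the same order. Irx2, the most abundant of them, was at 3.02, 0.74, 19.0 and 12.51 TPM. Between the +/+ cultures Irx2 thus went the other way from the Hox sum. Egr2, a hindbrain segment gene that acts above Hox genes, was at 4.49, 1.25, 3.22 and 1.13 TPM. Its order over the cultures was not that of the Hox genes. Chd5-/- replicate 2 had the lowest Hox sum and the lowest Emx2. The relation of these regulators to the Hox levels was not tested. Of the 21 hindbrain and spinal cord names, 9 had a row and 5 were tested, with 0 called, and Irx2 had the most positive difference (2.64, limma adjusted p = 0.120). Irx5, the next most abundant of them, was at 1.12, 5.44, 8.13 and 5.32 TPM. Of 11 midbrain names 2 were tested, with 0 called, and Otx2 differed by 1.37 (limma adjusted p = 0.197) and En2 by -0.060 (limma adjusted p = 0.948). Otx1 had the most positive difference of the forebrain regulators (1.39, limma adjusted p = 0.190).

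**Figure D4:**
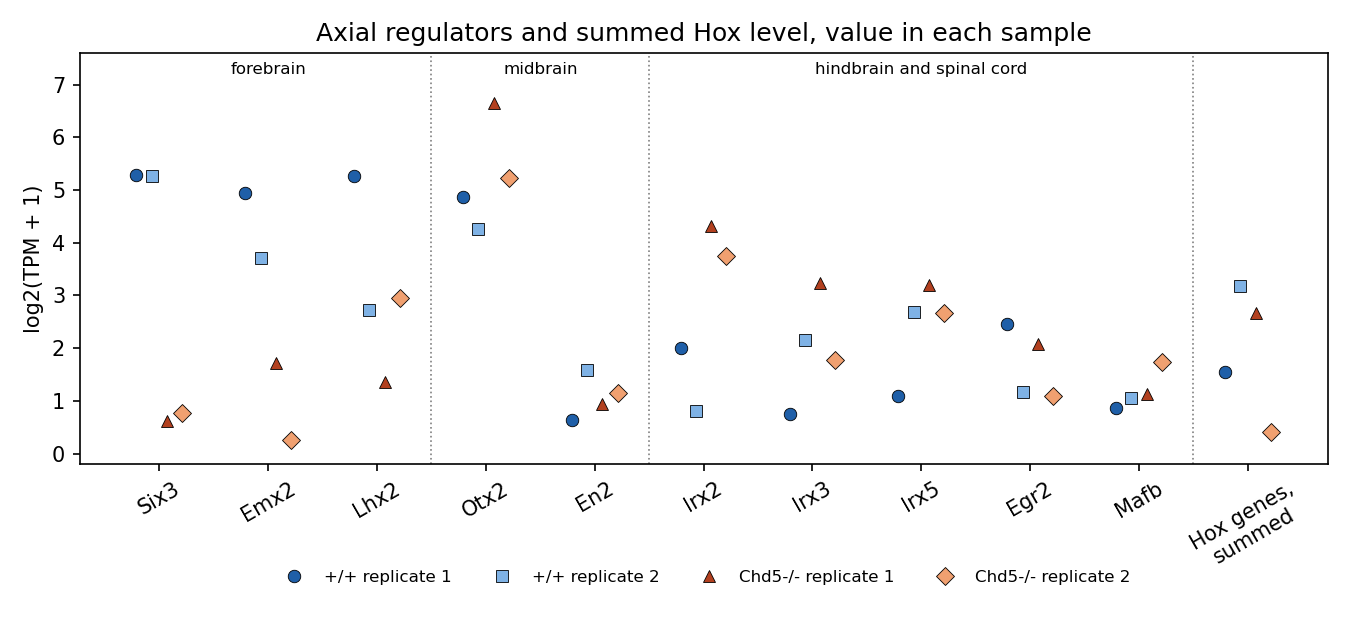
log2(TPM + 1) of regulators of forebrain, midbrain, and hindbrain and spinal cord, with the summed TPM of the 9 Hox rows at the right, in each sample. The Hox sum is 8.05 TPM in +/+ replicate 2 and 1.92 TPM in +/+ replicate 1, while Lhx2 is at 5.60 and 37.37 TPM in the same cultures.

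Known partners and regulators of Hox genes, unlike the Hox genes, mostly had rows and passed the minimum of 1 TPM. The TALE homeodomain cofactors, which bind DNA with Hox proteins, had a row for 10 of 10 names described, all tested, and 6 of 10 were higher without overlap and 0 lower, beside 46.3% and 13% of all rows tested. None passed the adjusted threshold, 3 were higher at an unadjusted p under 0.05 (30%, beside 21.9% of all rows tested), and the median log2 difference was 0.50, which moved to 0.11 with median-of-ratios scaling, to 0.077 with quantile normalization and to -0.073 once trends with GC and length were removed. The median of all rows tested moved from 0.34 to -0.032, -0.052 and -0.013 in the same order. Tgif1, the most abundant of the 10, had 22.11 and 22.86 TPM in +/+ cultures and 84.74 and 28.09 TPM in Chd5-/- cultures. Meis2, the next most abundant, differed by 0.079 (limma adjusted p = 0.949). Pbx4 had the largest difference (1.47, limma adjusted p = 0.122) and Pbx3 the lowest (-0.41, limma adjusted p = 0.565).

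Of the Polycomb genes, which keep Hox clusters silent, 29 rows were tested and 0 passed the adjusted threshold. At an unadjusted p under 0.05, 8 were higher and 1 lower, 27.6% and 3.45%, beside 21.9% and 2.27% of all rows tested. The median was 0.19, beside 0.34 for all rows tested. It was -0.20 beside -0.032 with median-of-ratios scaling, -0.046 beside -0.052 with quantile normalization, and -0.033 beside 0.13 when rescaled without the 20 most abundant rows. Of the 29 rows, 3 (Phf1, Pcgf2 and Cbx2) were under 1 TPM on average in +/+ cultures, and without them the median was 0.044. These 3 are among the 8 higher rows and reached the minimum only through the Chd5-/- cultures, so no excess is read from 27.6%. Rbbp7 and Rbbp4, histone chaperones and the most abundant rows, differed by -0.32 and 0.038 (limma adjusted p = 0.594 and 0.930). Phc2, a subunit of Polycomb repressive complex 1, had the largest difference (1.77, limma adjusted p = 0.120) and Yaf2 the lowest (-0.65, limma adjusted p = 0.172). Of the H3K27 demethylases and the trithorax genes, which counter Polycomb, 14 were tested, with 0 called. At an unadjusted p under 0.05, 5 were higher and 0 lower, 35.7% and 0%, beside 21.9% and 2.27% of all rows tested. The median was 0.41, beside 0.34 for all rows tested. It was 0.0084, 0.057 and 0.18 under the 3 scalings in that order, beside -0.032, -0.052 and 0.13. Kmt2b had the largest difference (1.14, limma adjusted p = 0.170). Psip1, the most abundant at a mean of 310.0 TPM, had the lowest (-0.28, limma adjusted p = 0.511), and Dpy30, the next, differed by -0.018 (limma adjusted p = 0.974). Retinoic acid is the classical inducer of 3′ Hox genes. Of its pathway, 12 rows were tested, with 0 called and 6 higher at an unadjusted p under 0.05, which is 50% beside 21.9% of all rows tested. The median was 0.75, beside 0.34 for all rows tested. It was 0.40 beside -0.032 with median-of-ratios scaling and 0.13 beside -0.052 with quantile normalization. When rescaled without the 20 most abundant rows it was 0.57 beside 0.13, and once trends with GC and length were removed 0.062 beside -0.013. Of the 12 rows, 2 (Rarg and Dhrs3) were under 1 TPM on average in +/+ cultures, and without them the median was 0.47. Both are among the 6 higher rows and reached the minimum only through the Chd5-/- cultures, so no excess is read from 50%. Aldh1a1, which makes retinoic acid, had 29.51 and 77.39 TPM in +/+ cultures and 555.04 and 317.85 TPM in Chd5-/- cultures, a log2 difference of 3.11 (limma adjusted p = 0.120). Ncor1, a corepressor and the next most abundant row, differed by -0.14 (limma adjusted p = 0.737), and Rdh10, a retinol dehydrogenase, had the lowest difference (-0.42, limma adjusted p = 0.407). Over the same cultures Hoxa2, one of the 3′ genes, overlapped between genotypes, and Halr1, beyond the 3′ end of HoxA, did not. A link between this pathway and the Hox levels was not tested. Cyp26a1, which degrades retinoic acid, had no row. Cyp26b1, of the same family, had 0.07 and 0.06 TPM in +/+ cultures and 0.19 and 3.6 TPM in Chd5-/- cultures. Its mean of 0.98 TPM left it untested.

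Regulators of non-neural lineages, many of them also silenced by Polycomb in neural cells, gave a set to put beside the Hox genes. Of 57 names described, 36 had a row, 28 of which stayed under 1 TPM in every sample. Of the 36, 11 were higher and 3 lower without overlap, 30.6% and 8.33%, against 0 and 2 of 9 for Hox genes. Over all rows these shares were 41.1% and 10.6%, and over rows with a mean under 1 TPM 29.4% and 5.08%. The 30.6% was thus near the share of rows at low levels. Of the 5 tested rows 0 passed the adjusted threshold, beside 0.0557% of all rows tested. At an unadjusted p under 0.05, 4 were higher and 1 lower, 80% and 20%, beside 21.9% and 2.27% of all rows tested. In 3 of the 5 (Msx1, Twist1 and Pax3) the +/+ mean was under 1 TPM, so these rows reached the minimum only through the Chd5-/- cultures. These 3 are among the 4 higher rows, so no excess is read from 80%, and no median is given. Pax3, a neural crest and muscle regulator, had 0.07 and 0 TPM in +/+ cultures and 2.29 and 11.24 TPM in Chd5-/- cultures (log2 difference 2.62, limma adjusted p = 0.129). Prrx1, a limb and craniofacial mesenchyme regulator, had the most negative difference (-1.44, limma adjusted p = 0.120). Eya1, a regulator of ear and kidney, had 3.86 and 3.43 TPM in +/+ cultures and 9.08 and 35.03 TPM in Chd5-/- cultures (log2 difference 2.04, limma adjusted p = 0.155). No test of the difference between these genes and the Hox genes was made, and 9 rows are few for reading such shares.

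**Figure D5:**
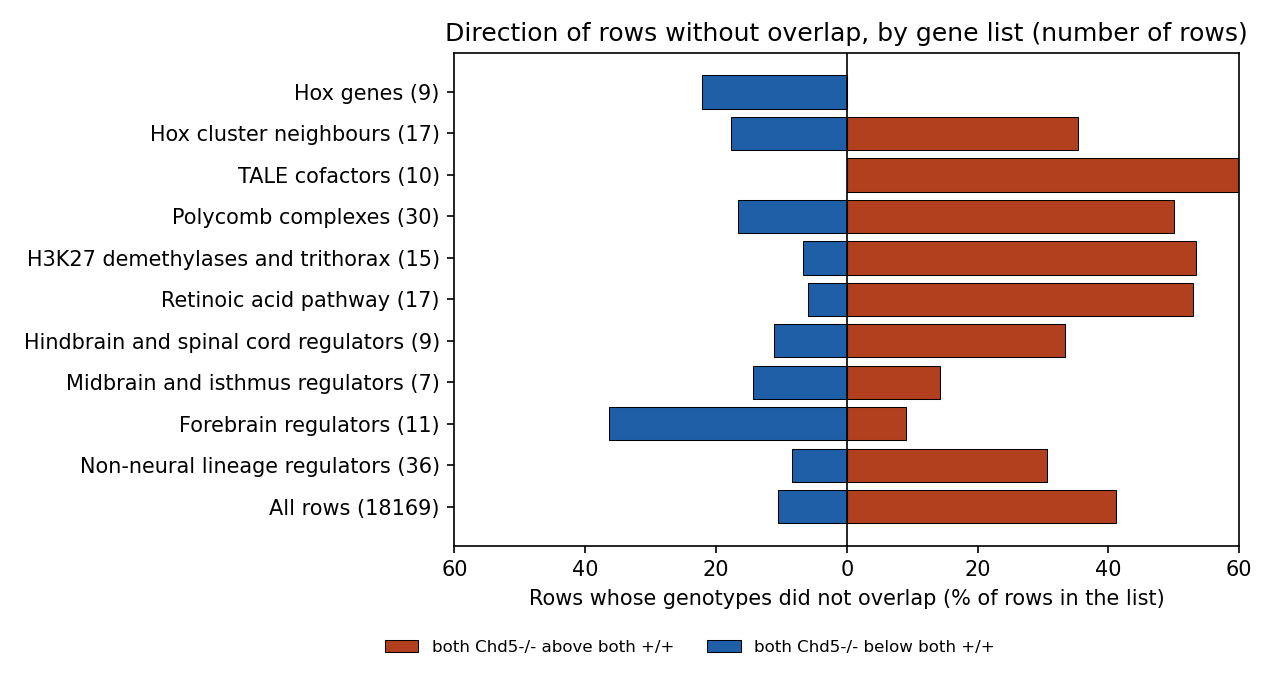
Share of the rows of each list, with the number of rows in brackets, in which both Chd5-/- samples lay above (red, right) or below (blue, left) both +/+ samples. For Hox genes the shares are 0 and 2 of 9 rows, and for all rows 41.1% and 10.6%.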

How the data were processed

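The authors deposited 1 table of TPM values. The submitters' processing notes name Bowtie2 2.2.3, RSEM 1.2.20 and mm10, with no roles given, and the gene annotation is not given in the sources used here. TPM was used as deposited, columns were matched to samples by name, and log2(TPM + 1) was compared between genotypes with limma 3.58.1 in R 4.3.3 (eBayes with a trend, two-sided) for rows whose mean was 1 TPM or more. P-values were adjusted by Benjamini-Hochberg across every row tested, and a row passed at an adjusted p of 0.05. TPM are not counts, so no count test was run, and precision rests on 2 samples per genotype. Positions are from GENCODE M21, with GC and length from its transcripts for 93% of tested rows (loess, span 0.5). Promoters are from RefSeq (GRCm38.p6).

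The members and 15 other gene lists were chosen with earlier results of these data known. Named were Hox genes with a mean of at least 0.1 TPM, Chd5, and in each list the 2 most abundant tested rows, the largest positive and negative differences, and rows that passed. Genes outside this rule were named after their values were seen, and some genes that fall under the rule or the lists are not reported here and are not in their counts. A list's median is given where 5 or more tested rows had a mean of 1 TPM in both genotypes, a rule chosen after seeing the data. Alternatives were pseudocounts of 0.1 and 5, a minimum of 10 TPM or none, 3 scalings (by quantiles, by median of ratios, or with the 20 most abundant rows left out), fits after GC and length trends were taken out, a replicate block, and leaving out each sample. The fit was tested on simulated data. Python 3.11.15 with pandas 2.3.3, numpy 2.4.6 and matplotlib 3.10.9 made the tables and figures.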

Additional observations from a re-analysis of the deposited data

How the results depend on the processing

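No Hox gene passed the adjusted threshold under any alternative run, but nearly all of these tested Hoxa5 alone. All 9 Hox rows were tested only with no minimum TPM, where 0 of all 18169 rows passed. A minimum of 10 TPM left no Hox row to test. Nothing is therefore concluded from the lack of calls for the Hox genes as a set. The log2 difference of Hoxa5 stayed below 0 in all 12 alternatives. The number of the described HoxA genes counted as expressed was 1 at a mean of 1 TPM, 2 at 0.5 TPM, 5 at 0.1 TPM and 7 at any value above 0, where HoxC and HoxD had 1 each. Under each of the 3 other scalings 0 Hox rows were higher and 4 lower without overlap, and with single samples left out, 0 to 4 were higher and 2 to 5 lower, beside 46.4% to 60% and 16.1% to 21.7% of all rows. Depth is unknown, so values near 0 carry an error that could not be given. The causes of these changes were not tested.

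Of all rows tested, 7 passed, against 4 with a pseudocount of 0.1, 0 with no minimum, 3 after quantile normalization, 3 with GC and length trends taken out, 0 with the replicate block, and 0 to 1247 with single samples left out (0 without either +/+ sample, 1086 without Chd5-/- replicate 2, 1247 without Chd5-/- replicate 1). Same-numbered samples did not deviate together (correlation -0.152), and the block changed no Hox call. With the pairing crossed, an alternative chosen after seeing the data, 5 rows passed and 0 were Hox genes. Among the forebrain regulators 1 row passed, and 0 passed with no minimum, with a minimum of 10 TPM and with the replicate block.

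The medians of the gene lists moved with the scaling, as did that of all rows tested (0.34, and -0.052 to 0.13 under the 3 scalings). After median-of-ratios scaling they were -0.45 for the cluster neighbours, 0.11 for the TALE cofactors, -0.20 for the Polycomb genes, 0.0084 for the H3K27 demethylases and trithorax genes and 0.40 for the retinoic acid pathway. After quantile normalization the same lists gave -0.21, 0.077, -0.046, 0.057 and 0.13. Rescaling without the 20 most abundant rows gave -0.28 for the neighbours, 0.28 for the TALE, -0.033 for the Polycomb, 0.18 for the demethylase and 0.57 for the retinoic acid list. With GC and length trends taken out, the TALE list gave -0.073, the Polycomb list 0.070, the demethylase list 0.068 and the retinoic acid list 0.062. A pseudocount of 5 gave 0.46 for the retinoic acid list, and a minimum of 10 TPM gave -0.017 and 0.16 for the Polycomb and demethylase lists. No median is given for the hindbrain, forebrain, non-neural and mesenchymal lists, in each of which fewer than 5 tested rows reached a mean of 1 TPM in both genotypes.

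With single samples left out, the medians went from -0.060 to 0.11 for the neighbours (0 to 1 rows passing), 0.42 to 0.67 for the TALE (0 to 2), 0.15 to 0.25 for the Polycomb (0 to 2), 0.23 to 0.54 for the demethylase (0) and 0.56 to 1.15 for the retinoic acid list (0 to 3). The NSC markers, with a median of -0.39, went from -1.09 to 0.086 (0 to 6). The number of rows passing was 0 to 1 for the hindbrain, 0 to 2 for the forebrain, and 0 to 5 for the non-neural and for the mesenchymal list.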

Other observations

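Markers of other cell types were also measured, and their part in the Hox values was not tested. Choroid plexus and ependymal markers had 9 of 10 names with a row and summed to 4.73 and 5.19 TPM in +/+ cultures and to 30.2 and 15.5 TPM in Chd5-/- cultures. Folr1, a folate receptor of choroid plexus, had 0, 0, 18.48 and 0.24 TPM in the order +/+ 1, +/+ 2, Chd5-/- 1 and Chd5-/- 2, so it was high in the culture with Hoxa2. Foxj1, a regulator of motile cilia, had 1.52, 1.71, 6.50 and 5.11 TPM, and Dynlrb2, a dynein light chain, 1.95, 2.22, 1.80 and 8.42 TPM. Endothelial markers had 6 of 9 names with a row and summed to 5.17 and 19.8 TPM in +/+ cultures and to 2.28 and 1.29 TPM in Chd5-/- cultures. Most of that was Flt1, a VEGF receptor, which had 19.45 TPM in +/+ replicate 2, the culture with the highest Hox sum, while Pecam1, a defining endothelial marker, had 0.06 TPM there.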
